A study of Mus musculus with 6 samples.

Results

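The ZBTB family is a group of transcription factors that carry a BTB domain at one end, through which they pair and recruit co-repressors, and C2H2 zinc fingers at the other, with which they read DNA. Many act as repressors, and several are known for setting the fate of blood cells: BCL6 in germinal centre B cells, PLZF (Zbtb16) in innate-like T cells and stem cells, ThPOK (Zbtb7b) in helper T cells and LRF (Zbtb7a) in red cell and lymphoid precursors. CTCF, the protein deleted here, is itself a C2H2 zinc finger protein, known for insulating genes from distant enhancers and for holding chromatin loops. The members were all genes whose symbol is Zbtb followed by a number, together with Bcl6, Bcl6b, Patz1 and Hic1, each represented by its brightest probe set with a single gene symbol. This gave 41 genes of the 22180 measured. The family was selected on a measured value, the fall of Zbtb39 in the knockout, so the differences between knockout and WT are given below as a description and support nothing by themselves.

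LSK cells, the lineage-negative, Sca-1 positive and c-Kit high fraction of mouse bone marrow that holds the haematopoietic stem cells and early multipotent progenitors, were profiled on 6 Affymetrix Mouse Gene 2.0 ST arrays. The conditional knockout group, labelled CTCFcKO, comprised 3 arrays of mice in which tamoxifen induces the loss of Ctcf, and the WT group 3 arrays from mice labelled WT. All mice were male and 8 weeks old, and tamoxifen was injected into every mouse at 2 mg daily on 3 days, with marrow taken 24 hours after the last dose. The series text names CreER mice beside the knockout, but the labels leave unsaid whether the WT mice had the recombinase and which promoter drives it. Values are log2 levels after RMA, the authors' normalization and probe set summary, and differences are CTCFcKO minus WT with the SE of a limma fit over all genes. Within an array, the level of one probe set cannot be ranked against that of another as an amount of RNA, because probes differ in how well they bind.

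Ctcf itself had log2 levels of 7.58, 7.78 and 7.86 on the CTCFcKO arrays, against 8.35, 8.59 and 8.73 on the WT arrays. Its groups did not overlap, and the log2 difference was -0.82 (SE 0.13, limma adjusted p = 0.104), which missed the threshold of 0.05. Array medians over all probe sets lay between 5.99 and 6.07, and the labels name no batch. Of the LSK surface marker genes Kit, Cd34, Flt3, Slamf1, Procr and Cd48, among which Kit encodes a protein the sort used, 0 of 6 passed the test. Groups did not overlap for Kit, with a difference of -0.22 (SE 0.13), and for Slamf1, with 0.33 (SE 0.11), while Flt3 differed by -0.42 (SE 0.16) with overlap. The Sca-1 gene Ly6a was not analysed here. Markers of other cells carry no detection call on these arrays. All 9 measured B and plasma cell markers had negative differences (median -0.64) with 0 past the threshold, and their summed linear signal lay between 10906 and 19224 on CTCFcKO arrays and between 18005 and 28605 on WT arrays. Of the 9 mature neutrophil markers 7 were negative (median -0.52, 0 past the threshold), with summed signals of 820 to 1541 in CTCFcKO and 1223 to 5498 in WT. The other marker lists had medians of -0.07 for 9 T and NK cell genes, 0.08 for 5 erythroid genes and -0.11 for 9 monocyte and dendritic cell genes, none with a member past the threshold.

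Zbtb39, the gene that led to the choice of the family, encodes a protein with a BTB domain and zinc fingers whose target genes are little described. The RefSeq promoter window of Zbtb39, from 250 bases before to 50 after the annotated start, is shown because it holds a repeated run of letters. The window lies at chr10:127739280-127739579 on the plus strand of GRCm38.p6, and capitals mark every copy of GGGGGCGCT, the letters that end the commonly drawn CTCF motif.
Zbtb39: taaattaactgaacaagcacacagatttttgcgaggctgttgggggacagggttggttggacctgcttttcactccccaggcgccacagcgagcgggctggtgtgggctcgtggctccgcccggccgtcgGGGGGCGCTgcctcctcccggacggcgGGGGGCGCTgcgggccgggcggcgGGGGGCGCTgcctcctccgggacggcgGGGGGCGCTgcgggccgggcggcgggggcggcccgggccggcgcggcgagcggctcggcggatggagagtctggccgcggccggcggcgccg
The 4 copies begin at positions -120, -93, -69 and -42 relative to the start, all on the plus strand. Nearly the same letters follow the copies at -120 and -69, and the same letters follow those at -93 and -42. The stretch thus reads as a repeat, and its copies are not separate occurrences. This 9-letter run was picked after the sequence of this promoter had been seen. Searched on both strands, it occurs in 241 of the 32851 promoters of the same length in the table (0.734%). At least 2 copies occur in 3 promoters, and 1 promoter, that of Zbtb39, holds 4 or more. The form with A in front, AGGGGGCGC, which shares 8 letters with it and is the more usual core, had 0 matches in the Zbtb39 window. It was found in 1.25% of all promoters and, among the members, in that of Zbtb7a. The Zbtb39 window holds 42 CG pairs, against a median of 7 over all promoters and 25 over those of members. The shares over all promoters are therefore no matched background for it. These matches describe letters in the window and say nothing of whether CTCF is bound there. Nor do the array data measure binding.

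On the arrays, Zbtb39 stood at log2 levels of 6.16, 6.11 and 6.11 in CTCFcKO, against 7.12, 7.10 and 6.96 in WT. The groups were separated by a gap of 0.80 between the highest CTCFcKO array and the lowest WT array, a gap that 14 of the 22180 genes reached or exceeded. Its mean was 6.13 ± 0.03 in CTCFcKO and 7.06 ± 0.09 in WT (SD, n = 3 each), a log2 difference of -0.93 (SE 0.10, 95% interval -1.17 to -0.70), which leaves 52.3% of the WT level. The CTCFcKO mean lay at percentile 46.6 of all gene means and the WT mean at percentile 64.8, so in the knockout the probe set lay below the middle of the array's range. These are bulk samples, in which fewer cells that express a gene and less RNA per cell cannot be told apart. The mean log2 level of the B and plasma cell markers was 8.87, 8.91 and 8.21 on CTCFcKO arrays 1, 2 and 3, against 9.69, 9.43 and 8.75 on WT arrays 1, 2 and 3. The mean for the mature neutrophil markers was 6.98, 6.66 and 6.20 on CTCFcKO arrays 1, 2 and 3, against 8.10, 6.43 and 7.41 on WT arrays 1, 2 and 3. The groups overlapped for both lists, both had negative medians, and their part in the Zbtb39 value was not tested.

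In the fit over all genes 1 of the 41 members passed an adjusted p of 0.05, and this was Zbtb39. Of all genes 0.0721% passed, 0.0451% as lower and 0.0271% as higher in CTCFcKO. Because the family was chosen for that call, nothing is read from the count. Zbtb39 passed in 0 of the 6 fits that left out 1 array, with differences between -0.98 and -0.91 and adjusted p between 0.0636 without WT replicate 3 and 0.171 without WT replicate 1. Among the other 40 members the lowest limma adjusted p was 0.432, for Zbtb45. An unadjusted p under 0.05 was reached by 4 members, against 8.11% of all genes. These were Zbtb39 and Zbtb8b, with negative differences (3.08% of all genes), and Zbtb14 and Zbtb45, with positive ones (5.03%).

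**Figure D1:**
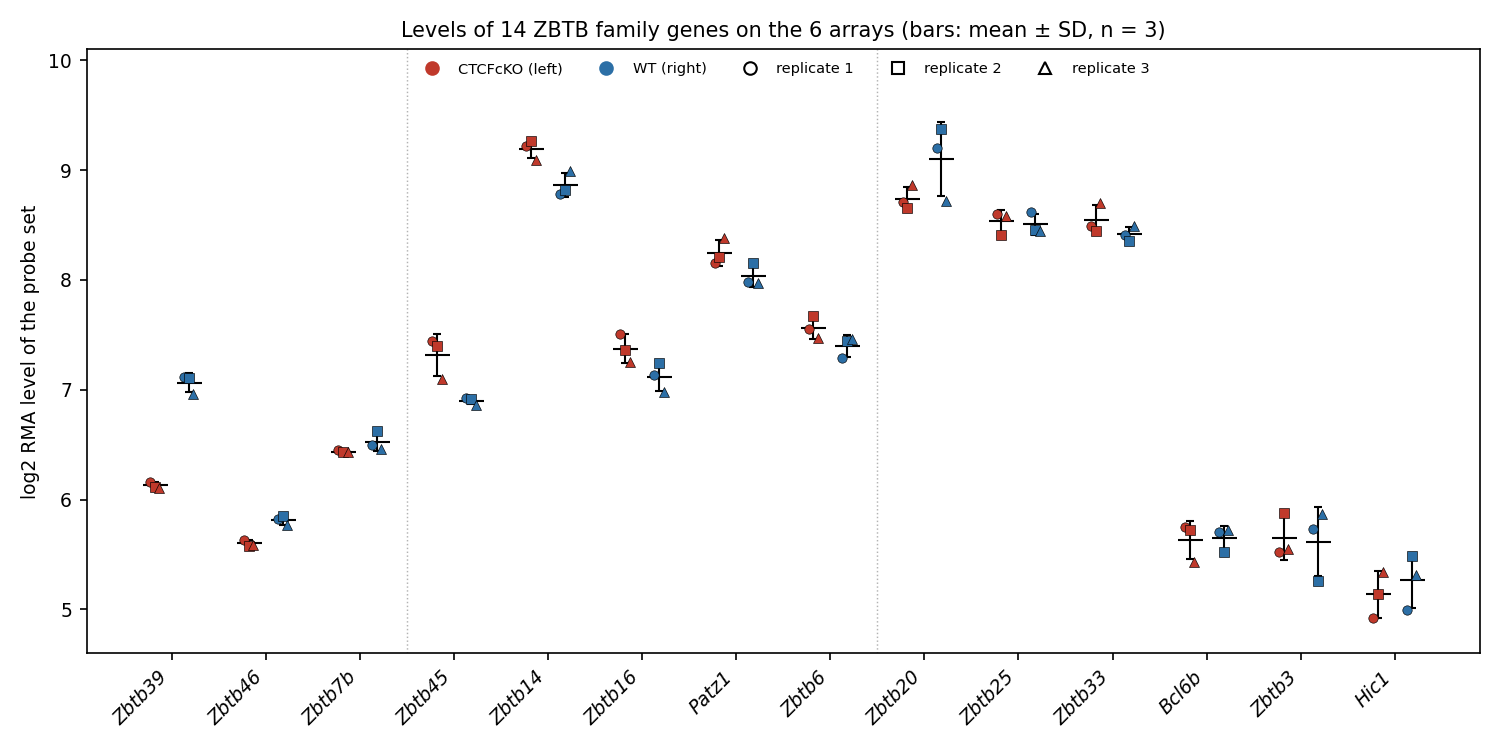
Log2 RMA levels (vertical axis) of Zbtb39 and other ZBTB family genes on each array, CTCFcKO in red at the left of each pair and WT in blue at the right, with bars for mean and SD (n = 3). The first block holds genes whose CTCFcKO arrays all lie below WT, the second those whose CTCFcKO arrays all lie above, and the third genes whose groups overlap; the gap is 0.80 for Zbtb39 and at most 0.18 for the others.

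Differences within the family ran in both directions. Of its 41 members 20 had a negative and 21 a positive difference, with a median of 0.00, against a median of 0.02 and 45.3% negative differences over all 22180 genes. The typical size of a difference, whatever its sign, was 0.10 in the family and 0.11 over all genes (medians of absolute log2 differences). Differences past 0.3 in either direction were found for 5 of the 41 members, or 12.2%, against 10.7% of all genes. Those members were Zbtb39, Zbtb8b and Zbtb20 on the negative side and Zbtb14 and Zbtb45 on the positive side. Setting Zbtb39 aside, the other 40 lay between -0.37 and 0.41. For comparison, the 37 measured Klhl genes, which pair a BTB domain with Kelch repeats in place of zinc fingers, had a median of 0.05 and a range of -0.27 to 0.33. The 336 genes with Zfp symbols, zinc finger genes mostly without a BTB domain, had a median of -0.01 and a range of -0.66 to 0.46. In each of these groups 0 genes passed the test; the difference between the groups was not tested.

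**Figure D2:**
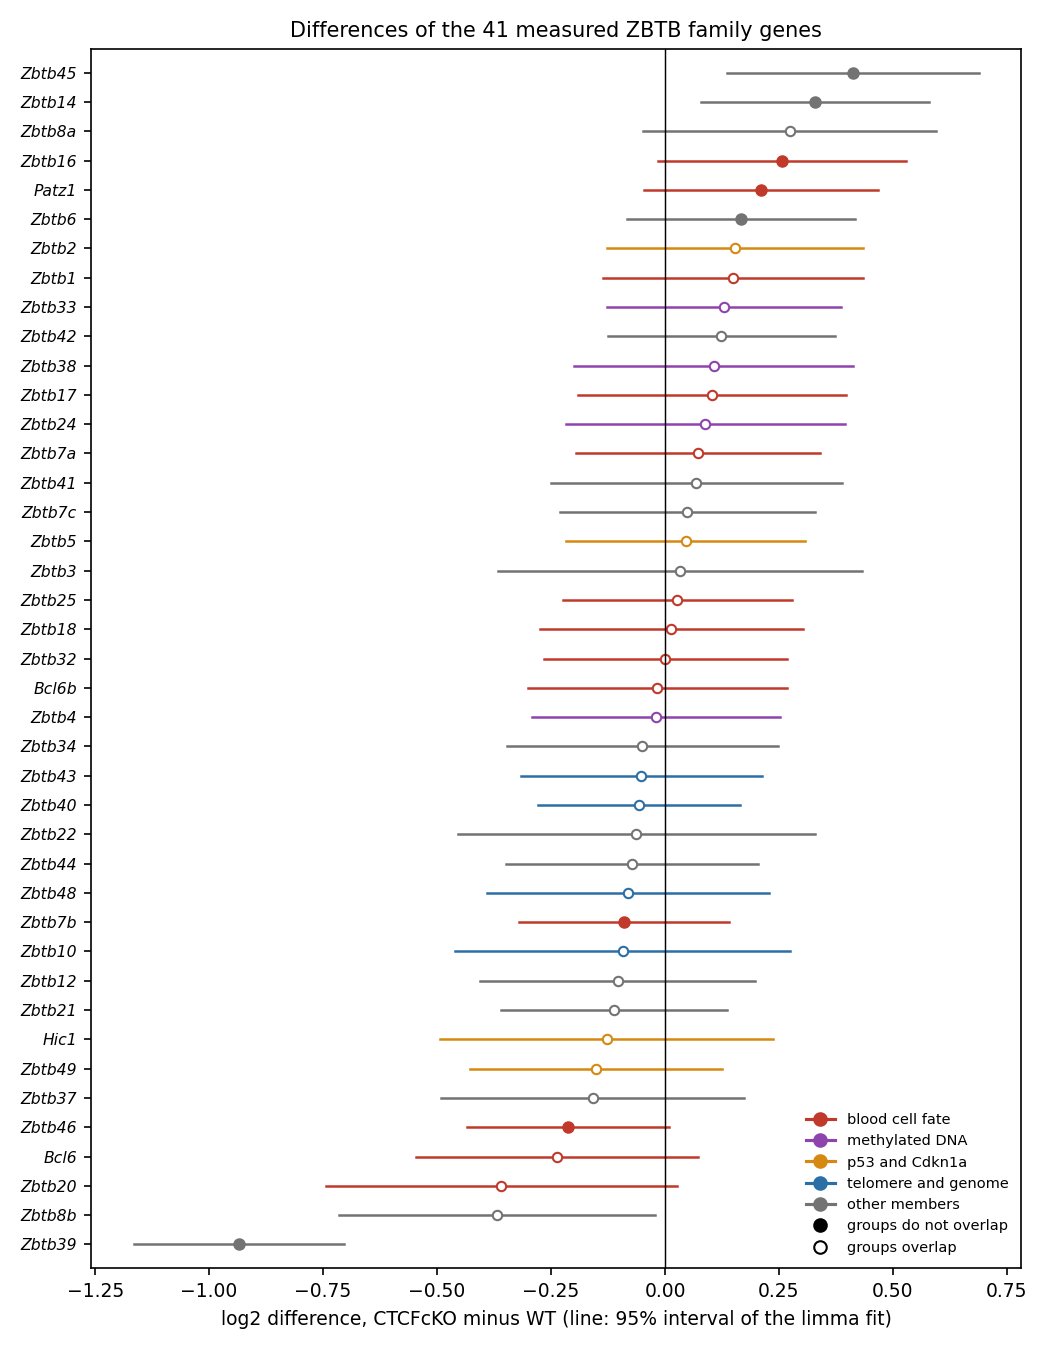
Log2 differences, CTCFcKO minus WT, of the 41 ZBTB family genes (points), ordered by size, with 95% intervals of the limma fit (lines). Colours mark the roles named in the legend and filled points genes whose groups do not overlap. Zbtb39, at -0.93, stands apart from the other members, which lie between -0.37 and 0.41.

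**Figure D3:**
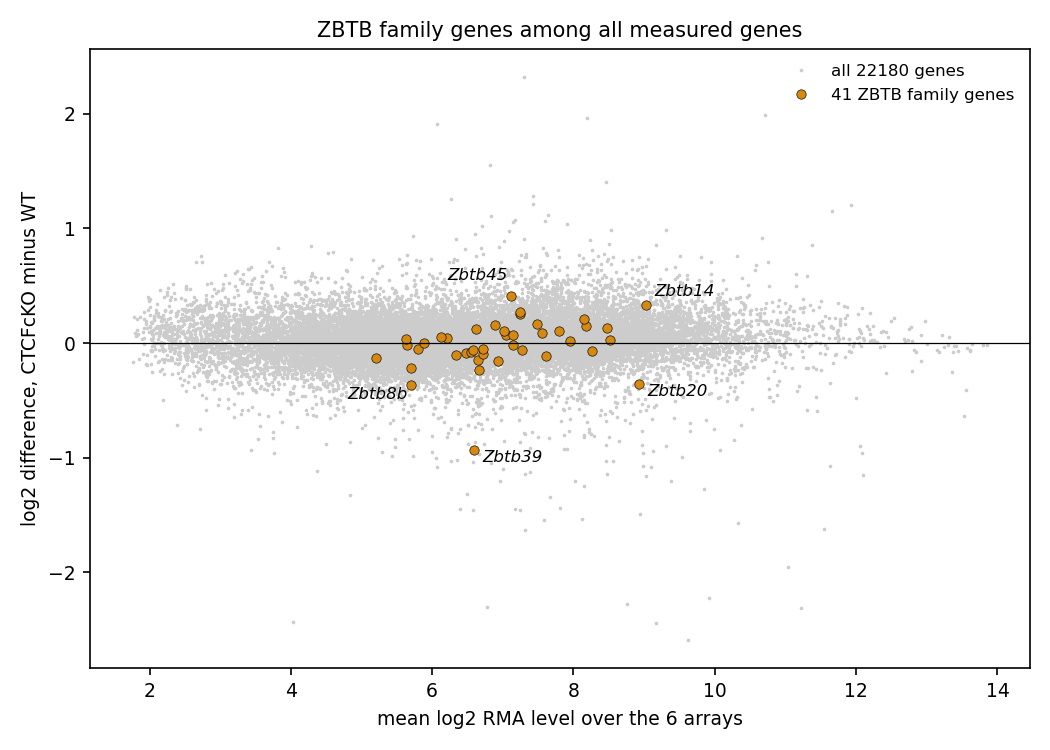
Mean log2 RMA level over the 6 arrays (horizontal axis) against the log2 difference, CTCFcKO minus WT (vertical axis), for all 22180 genes (grey) and the 41 ZBTB family genes (orange). Zbtb39, at -0.93, is the lowest of the family genes, and the others lie between -0.37 and 0.41. Differences over all genes ran from -2.59 to 2.32.

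The arrays of the groups did not overlap for 8 of the 41 members (19.5%), against 13.3% of all genes; without Zbtb39 they were 7 of 40 (17.5%). Below all WT arrays lay 3 members, against 5.32% of all genes, and above them 5, against 7.96%. No test was made on these shares. Most of the separations were small. Zbtb45, reported to restrain glial differentiation in the mouse brain, had levels of 7.45, 7.40 and 7.10 in CTCFcKO, against 6.92, 6.92 and 6.86 in WT, a gap of 0.18 and a difference of 0.41 (SE 0.12, 95% interval 0.14 to 0.69). Zbtb14, a repressor also known as ZF5, stood at 9.22, 9.26 and 9.09 in CTCFcKO, against 8.78, 8.82 and 8.99 in WT. Its difference was 0.33 (SE 0.11), with a gap of 0.11. On the linear scale the differences of Zbtb45 and Zbtb14 were 1.33-fold and 1.26-fold, higher in CTCFcKO.

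Zbtb14 was the only member with more than 1 single-symbol probe set, and its probe sets did not move together. In a fit over all probe sets the second differed by 0.11 (SE 0.10) and the third by -0.19 (SE 0.18). The second read 7.78, 7.78 and 7.70 in CTCFcKO, against 7.65, 7.56 and 7.73 in WT, and the third 6.72, 6.15 and 6.68, against 6.67, 6.83 and 6.63. Both of these overlapped between the groups. With the mean of the 3 probe sets the difference of Zbtb14 was 0.08, so its value depends on which probe set stands for the gene.

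Of the members listed as blood cell fate regulators, 13 were measured, 5 with a negative and 8 with a positive difference. Of these 13, 0 passed the test. Zbtb16, which encodes PLZF, had levels of 7.51, 7.36 and 7.25 in CTCFcKO, against 7.14, 7.24 and 6.98 in WT. All CTCFcKO arrays lay above WT, by a gap of 0.01, and the difference was 0.26 (SE 0.12, 95% interval -0.02 to 0.53). Patz1, a regulator of thymocyte development, had 8.16, 8.21 and 8.38 in CTCFcKO, against 7.99, 8.15 and 7.97 in WT (difference 0.21, SE 0.11). Its lowest CTCFcKO array, at 8.16, stood next to its highest WT array, at 8.15.

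Zbtb46, a marker of the classical dendritic cell lineage, stood at 5.63, 5.58 and 5.59 in CTCFcKO, against 5.82, 5.85 and 5.77 in WT. The replicates were tight in both groups, and the difference was -0.21 (SE 0.10, 95% interval -0.43 to 0.01). Zbtb7b, the CD4 T cell factor ThPOK, read 6.45, 6.43 and 6.43 in CTCFcKO, against 6.50, 6.62 and 6.46 in WT, which touch within 0.01 (difference -0.09, SE 0.10). The marker lists of monocytes and dendritic cells and of T and NK cells, given above, had medians of -0.11 and -0.07. In the first, Itgax differed by -0.22 (SE 0.12), with all CTCFcKO arrays below WT. In the second, Nkg7 differed by 0.68 (SE 0.20), with all CTCFcKO arrays above WT. Groups overlapped for the other genes of both lists. The part these markers play in the values of Zbtb46 and Zbtb7b was not tested.

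Zbtb20, which supports long-lived plasma cells and is also expressed in several other tissues, had 8.71, 8.65 and 8.86 in CTCFcKO, against 9.21, 9.37 and 8.72 in WT. WT array 3 lay within the CTCFcKO range, and the difference of -0.36 (SE 0.17, 95% interval -0.74 to 0.03) moved between -0.55 without WT replicate 3 and -0.22 without WT replicate 2. The B and plasma cell markers were lowest among WT arrays on array 3, where Zbtb20 was also lowest. Among CTCFcKO arrays these markers were lowest on array 3 too, with a mean of 8.21, where Zbtb20 was highest, at 8.86. The part these markers play in the value of Zbtb20 was not tested. A further probe set that covers Zbtb20 together with a microRNA gene differed by -0.27 (SE 0.27). Bcl6, the repressor of the germinal centre, had 6.77, 6.47 and 6.37 in CTCFcKO, against 6.88, 6.62 and 6.82 in WT, with overlapping groups and a difference of -0.24 (SE 0.14). BCL6 is known from human B cells to repress its own gene. A match to TTCCTNGAA, the form its fingers read, lies in 1 of the 2 RefSeq promoter windows of Bcl6, at chr16:23981423-23981471 on the minus strand of GRCm38.p6, where capitals mark the match and 20 bases are shown on each side.
Bcl6: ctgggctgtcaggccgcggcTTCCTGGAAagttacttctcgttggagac
The match begins at position -168 relative to that start, and these letters occur on either strand in 1.59% of all promoters. Of the 51 promoter windows listed for 35 members, this was the 1 that held them. That is 1.96%, near the share over all promoters, so nothing is read from the match.

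The remaining members of the blood cell list differed little. Zbtb1, needed for lymphoid development, differed by 0.15 (SE 0.13), Zbtb17, the MYC partner MIZ1, by 0.10 (SE 0.13), and Zbtb7a by 0.07 (SE 0.12). Zbtb25, a T cell repressor, Zbtb18, known best from neurons, Zbtb32, a repressor in B cells, and Bcl6b, the close relative of Bcl6, lay between -0.02 and 0.03. Their 95% intervals reached from -0.30 to 0.30 at the widest ends, so changes of up to about that size in either direction are compatible with these arrays. Zbtb25 was among the brighter members, at 8.60, 8.41 and 8.58 in CTCFcKO, against 8.61, 8.45 and 8.45 in WT. Bcl6b was among the dimmest, at 5.75, 5.72 and 5.43 in CTCFcKO, against 5.70, 5.52 and 5.72 in WT. In both genes the arrays of the groups were interleaved.

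The readers of methylated DNA are Zbtb33, or Kaiso, and its relatives Zbtb4 and Zbtb38; Zbtb24, mutated in a human immunodeficiency with loss of DNA methylation, was grouped with them. Kaiso stood at 8.49, 8.45 and 8.70 in CTCFcKO, against 8.41, 8.35 and 8.49 in WT, overlapping by a small margin (difference 0.13, SE 0.11). Zbtb4 differed by -0.02 (SE 0.12), Zbtb38 by 0.11 (SE 0.13) and Zbtb24 by 0.09 (SE 0.13). Further probe sets of Zbtb38, which it shares with a second symbol, differed by 0.15 (SE 0.16) and 0.08 (SE 0.14). None of the 4 genes passed the test.

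Of the members tied to p53 and to the cell cycle inhibitor Cdkn1a, Zbtb2 differed by 0.15 (SE 0.12), Zbtb5, a Cdkn1a repressor, by 0.04 (SE 0.11), Zbtb49 by -0.15 (SE 0.12) and Hic1, a tumour suppressor gene and p53 target, by -0.13 (SE 0.16). Hic1 was the dimmest member, at 4.92, 5.14 and 5.35 in CTCFcKO, against 4.99, 5.49 and 5.31 in WT. Its arrays were spread widely within each group, and the groups overlapped. The telomere and genome maintenance group, with the telomere trimming factor Zbtb48, the telomere-associated Zbtb10 and Zbtb40, and Zbtb43, had negative differences for all 4 members. They were small, from -0.09 for Zbtb10 to -0.05 for Zbtb43, and smaller than their SEs of 0.10 to 0.16. None of the members of either group passed the test or had groups that did not overlap. Over all genes the shares were 0.0721% and 13.3%, so nothing is read from these counts.

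Of the 16 members outside these roles, Zbtb39, Zbtb45 and Zbtb14 are described above. Zbtb6 had 7.55, 7.67 and 7.47 in CTCFcKO, against 7.29, 7.45 and 7.46 in WT, a separation of 0.01 (difference 0.17, SE 0.11). Zbtb8b had 5.36, 5.86 and 5.34 in CTCFcKO, against 5.89, 5.82 and 5.96 in WT. CTCFcKO array 2 lay inside the WT range, and the difference was -0.37 (SE 0.15). Zbtb3, another dim member, had 5.52, 5.88 and 5.55 in CTCFcKO, against 5.73, 5.26 and 5.87 in WT, with a difference of 0.03 (SE 0.18) and arrays that were interleaved. Zbtb37, Zbtb21, Zbtb12, Zbtb44, Zbtb22 and Zbtb34 had differences between -0.16 and -0.05, and Zbtb7c, Zbtb41 and Zbtb42 between 0.05 and 0.12. All 9 had overlapping groups.

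Several members lie side by side in the genome, and neighbours did not always differ in the same direction. Zbtb8a and Zbtb8b, on chromosome 4 with 2 genes between them, differed by 0.27 (SE 0.14) and -0.37 (SE 0.15). Zbtb8a read 7.62, 7.16 and 7.34 in CTCFcKO, against 7.22, 6.95 and 7.13 in WT, with CTCFcKO array 2 inside the WT range. Zbtb8os, which adjoins Zbtb8a and encodes the tRNA ligase cofactor archease and no zinc finger protein, has a probe set shared with a second symbol and is therefore no member; that probe set differed by 0.29 (SE 0.12). Zbtb25 and Zbtb1 on chromosome 12, with 0 genes between them, differed by 0.03 and 0.15, and Zbtb34 and Zbtb43 on chromosome 2 both by -0.05. Zbtb26, next to Zbtb6 on the same chromosome, shares a probe set with Zbtb6, which differed by 0.11 (SE 0.13). Of the 45 family symbols in the RefSeq table, 4 were not analysed as members: Zbtb26, Zbtb8os and Zbtb11, whose probe sets carry several symbols, and Zbtb9. The 3 shared probe sets of Zbtb11, a gene needed for neutrophil development in zebrafish, differed by -0.32 (SE 0.22), 0.03 (SE 0.12) and -0.02 (SE 0.20).

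Of the 6 genes nearest to Zbtb39 in the RefSeq gene order, 3 on each side, 0 passed the test. On one side Tac2, which encodes neurokinin B, differed by 0.16 (SE 0.16), Myo1a, a myosin of the gut brush border, by 0.06 (SE 0.11) and Nemp1, a nuclear envelope protein gene, by -0.02 (SE 0.18). On the other side Gpr182, a receptor gene of endothelium, differed by -0.17 (SE 0.16), and the retinol dehydrogenase genes Rdh1 and Rdh9 by 0.00 (SE 0.10) and -0.32 (SE 0.18). Groups overlapped for all 6 neighbours. The 95% interval of Zbtb39, -1.17 to -0.70, overlapped that of Rdh9, -0.73 to 0.10, and not those of the other neighbours. Zbtb39 was chosen for its fall, so this comparison is a description and tests nothing. Except for Nemp1, with WT levels near 8.19, the neighbours had WT means of 5.15 to 5.99. These lie below the median gene mean of 6.29, where a fall may be hard to see.

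**Figure D4:**
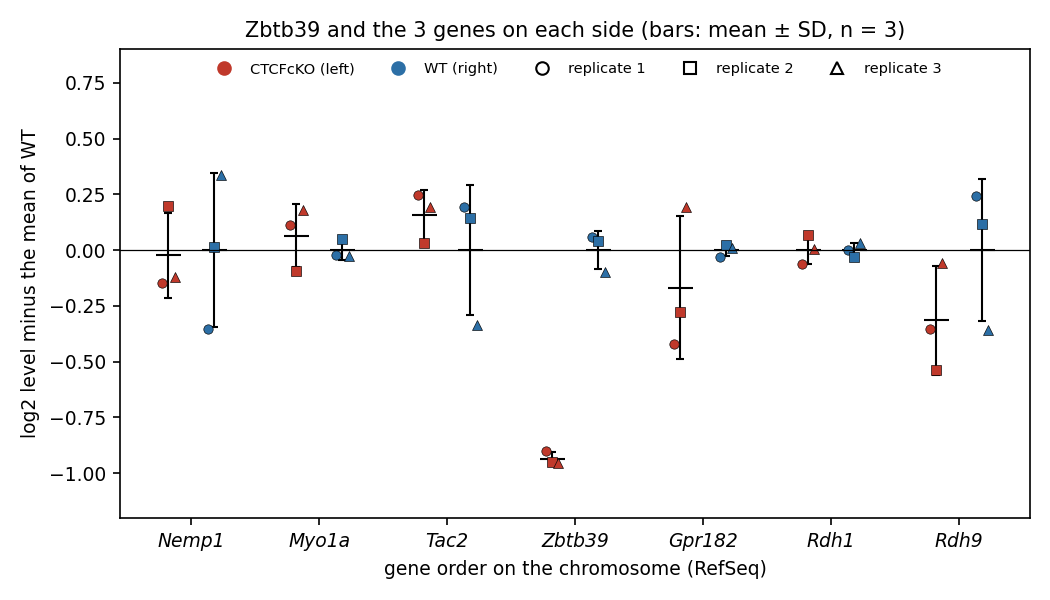
Log2 levels of Zbtb39 and the 3 genes on each side of it in the RefSeq gene order, each array shown as its level minus the mean of WT, with CTCFcKO in red at the left of each pair, WT in blue at the right, and bars for mean and SD (n = 3). The 3 CTCFcKO arrays of Zbtb39 lie near -0.93, while the groups of each neighbour overlap.

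Genes that act with the family, from lists chosen with earlier results of these data known, were read in the same fit. Of 6 BTB genes under other symbols 0 passed, with a median of 0.01; Nacc1 and Nacc2 in that list carry a BEN domain in place of fingers. Gzf1, a BTB zinc finger gene of the GDNF pathway, had 7.34, 7.15 and 7.07 in CTCFcKO, against 6.69, 6.67 and 6.86 in WT, without overlap (difference 0.45, SE 0.12, limma adjusted p = 0.364). Nacc1 differed by 0.13 (SE 0.17) and Hic2 by -0.12 (SE 0.11). Of 20 measured co-repressors and partners, the deacetylases and complexes that BTB domains recruit, 0 passed, 12 being positive and 8 negative (median 0.06). Hdac3, the deacetylase of the NCoR complex, differed by 0.32 (SE 0.13) and Mta3, a NuRD subunit and BCL6 partner, by -0.23 (SE 0.10). Hdac2 differed by 0.28 (SE 0.19), and by 0.06 without CTCFcKO replicate 2 and 0.44 without CTCFcKO replicate 1.

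Among 17 measured genes known as BCL6 targets, a list also chosen with earlier results known, 1 passed as lower and 0 as higher, against 0.0451% and 0.0271% of all genes. Their median was -0.08, against 0.02 over all genes, and groups did not overlap for 4 of the 17, against 13.3% of all genes. The gene that passed was Il7r, the interleukin-7 receptor chain, at 7.52, 7.60 and 7.74 in CTCFcKO, against 9.93, 10.27 and 9.49 in WT (difference -2.28, SE 0.18, limma adjusted p = 0.00672). Il7r passed in 5 of the 6 fits that left out 1 array and not without CTCFcKO replicate 1 (limma adjusted p = 0.0606). Ccl3 differed by -0.85 (SE 0.48) with overlapping groups, and by -1.34 without CTCFcKO replicate 3 and -0.45 without WT replicate 2. Further targets, named after their values were seen, were Prdm1 at -0.62 (SE 0.20) with overlap, and Myc at -0.50 (SE 0.15) and Cxcr4 at 0.25 (SE 0.10) without overlap. Irf4, at -0.67 (SE 0.42), and Socs2, at -0.47 (SE 0.21), had overlapping groups. Irf4 and Prdm1 were lowest on array 3 of each group, as was the mean of the B and plasma cell markers, and Socs2 was not. The part these markers play in the values of Irf4 and Prdm1 was not tested. In the list 9 targets were negative and 8 positive. Differences past 0.3 in either direction were found for 9 of the 17, against 10.7% of all genes. Because the list was chosen with results of these data known, nothing is read from its counts beside these shares. Cdkn1a, a target of BCL6 and of MIZ1, had 8.51, 8.84 and 9.19 in CTCFcKO, against 7.99, 8.01 and 8.35 in WT, without overlap (difference 0.73, SE 0.18, limma adjusted p = 0.341). Of 7 measured MIZ1 targets 0 passed, with a median of 0.00; beside Cdkn1a, Cdkn1c differed by 0.15 (SE 0.13) and Vamp4 by 0.15 (SE 0.11).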

How the data were processed

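The deposited table holds log2 values; the authors used RMA and the R package oligo, per the submitters' processing notes, without versions. Of 41345 probe sets 23521 had 1 gene symbol in GEO's platform annotation, 1814 several and 16010 none here; 22180 genes were kept, each by its brightest probe set, with no filter on low values. The groups were compared with limma 3.58.1 (R 4.3.3; lmFit and eBayes, group as the only term), with Benjamini-Hochberg adjustment over all genes and a threshold of 0.05. This step was tested on simulated data. The labels call the arrays biological replicates without saying whether each was a separate mouse. The p-values rest on the spread between these arrays, moderated by limma over all genes. The number of arrays limits the precision.

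All members and lists were chosen with earlier results of these data known. Every member is named; per-array values are given for Zbtb39, the largest non-overlapping differences, the brightest and dimmest members, members of the blood cell list past 0.3, and some given after their values were seen. Promoters are from RefSeq (GRCm38.p6), which listed 35 of the 41 members. Alternatives were other moderation, array weights, brighter genes alone, further quantile normalization, centring, the mean of probe sets, a replicate block and each array left out.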

Additional observations from a re-analysis of the deposited data

How the results depend on the processing

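The number of genes called was 16, and 25 with trend and robust moderation. Leaving out CTCFcKO replicate 1 gave 0 (limma, 1725 genes at an unadjusted p under 0.05), replicate 2 gave 7 and replicate 3 gave 4. Leaving out WT replicate 1 gave 4, WT replicate 2 gave 5 and WT replicate 3 gave 8. The count of members called was 1 in the 6 alternatives that kept all arrays without a block, and 0 in each of the 6 fits without 1 array. Members whose groups did not overlap numbered 10 to 13 with 1 array left out, where fewer arrays have to be separated, against 8. With centring on the brighter genes the member median was -0.055, against 0.00, and the median of all genes -0.04, against 0.02.

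The labels do not say whether same-numbered arrays of the groups belong together, and the main fit treated them as unpaired. The correlations of their deviations were 0.29, 0.02 and -0.14, and 2 of 6 arrays correlated best with their own number. With so few arrays these values cannot settle it. With the replicate block 7 genes and 0 members were called, and Zbtb39 had an adjusted p of 0.0956. Zbtb39 lay between -0.99 and -0.91 over all 13 alternatives and Ctcf between -0.92 and -0.74. Of the 41 members 25 kept their sign in all 6 fits without 1 array, and 16, with small differences, changed it at least once. Of the other members' values 3 moved by more than the spread between replicates: Zbtb14 with the mean of its probe sets, and Zbtb40 (-0.11) and Zbtb46 (-0.27) with centring.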
